A study of Mus musculus with 20 samples.

Results

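The comparison set CD4+ iNKT1 cells circulating in blood against CD4+ iNKT1 cells isolated from liver in the cold (liver_C), both from C57/BL6N (BL6) mice. Its members were the 3 libraries labelled as BL6 blood and the 3 labelled as BL6 liver_C, which is 6 of the 20 libraries of the series. The question was how close circulating and liver cells were, and which genes set them apart. All cells were wild type and untreated, and the mice were females of 8 to 12 weeks. Each library held RNA of sorted cells. The blood cells were gated as CD4+ and CXCR3+ among CD3+ and tetramer+ lymphocytes that lacked DAPI, B220 and CD138, and the liver cells by the same markers. Livers were perfused with cold PBS, cut and meshed without enzymes in the cold, and their lymphocytes were enriched on Percoll at 20 °C. A liver library came from a pool of 4 to 6 mice, and the pool size for blood was not given in the sources used here, nor was the preparation of the blood cells. Effects of preparation and of organ cannot be told apart. The labels do not say whether a blood and a liver_C library came from the same mice. The other BL6 groups, used here only for orientation, were spleen, liver digested at 37 °C (liver_H) and thymus, with 3 libraries each.

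Invariant NKT (iNKT) cells are T cells with a semi-invariant T cell receptor that recognizes lipids presented by CD1d, which is what the PBS57-loaded CD1d tetramer detects. The iNKT1 subset expresses the transcription factor T-bet, produces interferon-γ and makes up a large part of the lymphocytes of the mouse liver, where the cells crawl along the sinusoids. Lymphocytes leave tissue through S1PR1, a receptor for sphingosine 1-phosphate that is plentiful in blood. The factor KLF2 switches on the gene of S1PR1, and the activation marker CD69 takes S1PR1 off the cell surface.

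Expression is given in normalized reads, that is, reads scaled by a factor for each library's depth. Values per library stand in the order N0962, N1378 and N1382 for blood and N1224, N1379 and N1383 for liver_C. Depth was 11392720 to 14083153 reads in blood and 11134789 to 19893211 reads in liver_C. The 6 most abundant genes took 29.1 to 40.6% of the reads in blood and 28.2 to 32.5% in liver_C. The blood libraries came from 126000, 10700 and 10700 sorted cells, and the liver_C libraries from 209900, 69300 and 87300. The library numbers fall into 3 ranges, of which only the last, N1376 to N1383, holds blood and liver_C together. All 6 libraries expressed the genes behind the sort, and *Alb* of hepatocytes had 0 to 38.3 normalized reads in blood and 3.10 to 27.3 in liver_C. The blood libraries differed in transcripts typical of other cells. *Rag1*, the recombinase of lymphocyte precursors, had 1540, 487 and 88.8 normalized reads in blood, against 0, 12.4 and 1.70 in liver_C. Blood library N1378 also had 551 normalized reads of the β-globin gene *Hbb-bs*, against 83.5 and 81.3 in the other blood libraries and 57.8, 20.7 and 34.1 in liver_C. *Rag1* had 7357 to 14000 normalized reads in thymus. Whether this RNA came from cells in the sorted samples or from mixing between samples or libraries was not tested.

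Blood libraries were on average nearer to liver_C libraries than to those of any other BL6 group. As a measure of distance, the root mean square difference of log2(value + 1) was taken over the 12239 genes that reached 10 normalized reads in 3 or more of the 6 libraries. Blood and liver_C libraries were 0.620 to 0.738 apart (mean 0.670, 9 pairs). This range overlaps those of libraries within a group, which were 0.610 to 0.625 apart in blood and 0.546 to 0.663 apart in liver_C (3 pairs each). Means were larger to spleen (0.774, range 0.703 to 0.837), liver_H (0.827, range 0.728 to 0.932) and thymus (0.877, range 0.808 to 0.934). The closest library outside blood was a liver_C library for each of the 3 blood libraries. Among the libraries N1376 to N1383 alone, blood was 0.656 from liver_C, 0.792 from spleen and 0.859 from thymus on average. Distances are a description without a test, since pairs share libraries.

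**Figure D1:**
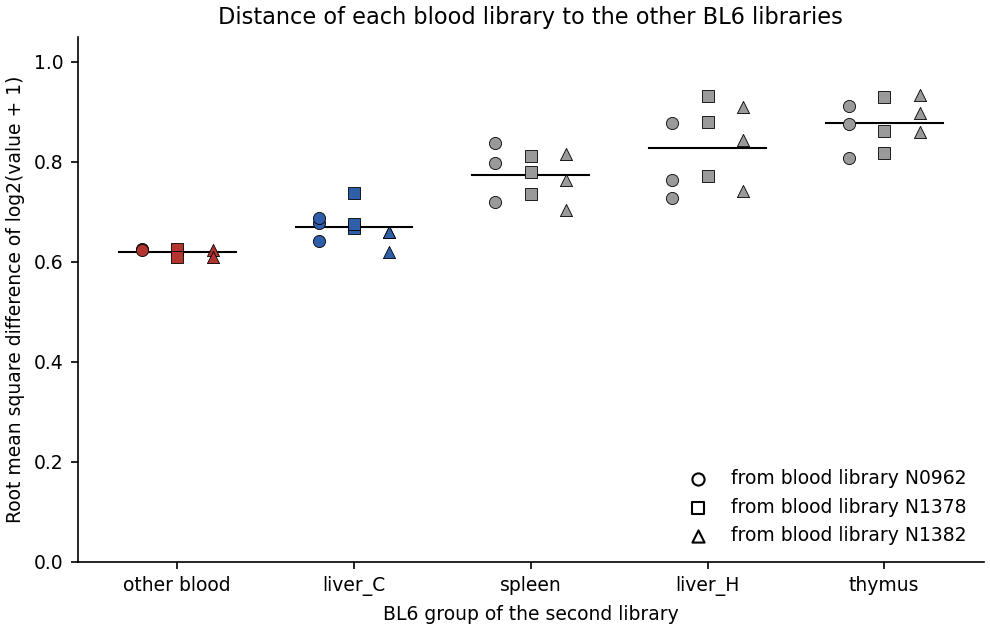
Distance of each blood library to the other BL6 libraries, as root mean square difference of log2(normalized reads + 1) over 12239 genes. Each point is a pair of libraries, its shape gives the blood library and the horizontal lines are means; the mean of the liver_C pairs (0.670) is just above that within blood (0.620) and below those with spleen, liver_H and thymus.

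Few genes differed between blood and liver_C. With limma, fitted to the 15 BL6 libraries, 35 of the 12239 genes passed a Benjamini-Hochberg adjusted p of 0.05, which is 0.286% of the genes tested. Of these, 15 were higher in blood (0.123%) and 20 were lower (0.163%), and a gene is said below to be called, to have risen or to have fallen only where it passed this test. Without single libraries 8 genes (without liver_C N1383) to 29 genes (without liver_C N1379) were called, with 14 without blood N1378, 17 without blood N1382, 19 without blood N0962 and 21 without liver_C N1224. With only the 6 libraries in the fit 95 were called, with DESeq2 141, and with a term for the library number range 84. All 15 higher genes and 15 of the 20 lower genes differed by more than 2-fold. In the same fit, 291 genes (2.38%) were called between spleen and liver_C, 283 (2.31%) between liver_H and liver_C, 1506 (12.3%) between thymus and liver_C, and 586 (4.79%) between blood and spleen. These comparisons share libraries with each other. They used the same 12239 genes, so genes that reached the minimum only in spleen, liver_H or thymus are missing from their counts. Differences of blood from liver_C were bounded tightly for most genes. The 95% confidence interval of the log2 fold change lay within 2-fold for 8639 genes (70.6%), and for 5546 (97.1%) of the 5712 genes that exceeded 300 normalized reads in 1 or more libraries. The median log2 fold change of all genes tested was −0.00051. All 35 called genes had no overlap between the groups, as had 13.6% of all genes tested. In bulk RNA, fewer cells of a type and less RNA per cell cannot be told apart, and the p-values measure the spread between these libraries.

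**Figure D2:**
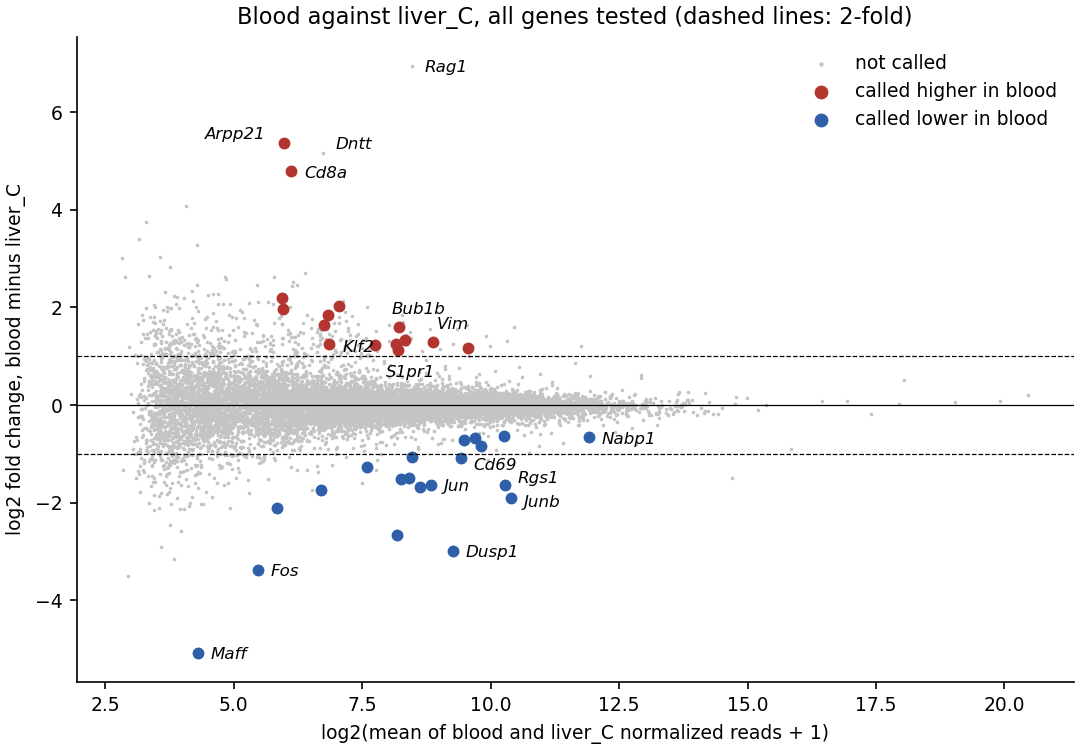
Log2 fold change of blood minus liver_C against log2 of the mean normalized reads (+ 1) for the 12239 genes tested. Red points are the 15 genes called higher in blood, blue points the 20 called lower, and grey points were not called, among them *Rag1* and *Dntt*, whose blood libraries differ widely.

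Genes of the immediate early response made up 10 of the 20 genes that were lower in blood than in liver_C. These genes are transcribed within minutes of a stimulus or a stress and encode AP-1 factors and their feedback inhibitors. Of 36 tested members of a list of 40, 10 fell in blood, none rose, and 34 had a negative log2 fold change. The median of the 36 was −0.49, against −0.00051 for all genes tested. The 10 were *Dusp1*, *Junb*, *Ppp1r15a*, *Jun*, *Fos*, *Egr3*, *Fosl2*, *Tnfaip3*, *Ier2* and *Nfkbiz*. In spleen, *Jun* had 211 to 348, *Ppp1r15a* 163 to 261, *Fos* 0 to 12.8 and *Fosl2* 175 to 233 normalized reads. These values are near those in blood, so the low level of these genes was not particular to blood. Spleen was above blood for *Junb* (992 to 1284), *Egr3* (157 to 218), *Ier2* (779 to 830), *Nfkbiz* (801 to 923) and *Tnfaip3* (1419 to 1485).

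The gene with the smallest p was *Dusp1* (chr17:26505590-26508519, GRCm38), which encodes the phosphatase that switches off the stress kinases p38 and JNK. It had 171, 115 and 129 normalized reads in blood, against 918, 1128 and 1233 in liver_C. Every blood library was far below every liver_C library. The log2 fold change was −2.98 ± 0.18 (SE), with an adjusted p of 1.84e-08 in limma. *Dusp1* had 176 to 242 normalized reads in spleen, 3422 to 4806 in liver_H and 299 to 435 in thymus, so that cold liver stood between blood and digested liver.

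Among the AP-1 subunits, *Junb* had 629, 537 and 527 normalized reads in blood, against 2042, 2025 and 2296 in liver_C (log2 fold change −1.91 ± 0.15, adjusted p = 1.12e-06). The libraries of both groups were close to each other and did not overlap. *Junb* overlaps *Prdx2* on the other strand, for which the log2 fold change was −0.06 (adjusted p = 0.983), and the strand setting of the counting is not given in the sources used here. *Jun* had 265, 193 and 209 normalized reads in blood, against 836, 660 and 575 in liver_C (−1.63 ± 0.29, adjusted p = 0.0151). *Fos*, the partner of the Jun proteins, was scarce, with 16.3, 3.46 and 4.67 normalized reads in blood, against 68.8, 67.2 and 101 in liver_C (−3.37 ± 0.66, adjusted p = 0.0288). Even in liver_C its level was a small part of that in liver_H, where it had 1203 to 1812 normalized reads. *Fosl2* had 277, 241 and 170 normalized reads in blood, against 376, 528 and 533 in liver_C (−1.07 ± 0.19, adjusted p = 0.015). *Maff*, a small Maf protein that is not on the list, was at 0 in all 3 blood libraries, against 15.4, 36.2 and 60.5 normalized reads in liver_C. Set against a floor of 3 reads per library, it was at least 13.5-fold lower in blood (adjusted p = 6.05e-04). *Maff* entered the test only through liver_C, where it is high, so the filter fixed its lack of overlap. Its adjusted p carries this limit, and leaving out any liver_C library left it untested. *Fosb* had 10.6, 5.20 and 0.934 normalized reads in blood, against 18.2, 32.1 and 7.67 in liver_C, and was not called (adjusted p = 0.386).

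*Ppp1r15a* (GADD34), which directs a phosphatase to the initiation factor eIF2α and so restarts translation after stress, had 206, 158 and 199 normalized reads in blood, against 659, 508 and 648 in liver_C. The groups were apart by more than the spread within either (log2 fold change −1.68 ± 0.20, adjusted p = 1.81e-04). *Jun* overlaps *Junos* on the other strand and *Cdc25b* (below) overlaps *Spef1*, so that their reads are uncertain in the same way as those of *Junb*. *Egr3*, a factor induced by T cell receptor signals, had 107, 86.6 and 149 normalized reads in blood, against 246, 232 and 337 in liver_C (−1.26 ± 0.23, adjusted p = 0.0157). *Ier2* fell by 0.72 on the log2 scale (adjusted p = 0.0151). *Irs2*, an adaptor of insulin and IL-4 receptors, is not on the list. It had 252, 122 and 118 normalized reads in blood, against 413, 387 and 544 in liver_C (−1.52 ± 0.24, adjusted p = 0.00513), and 162 to 215 in spleen. Members that did not pass the test included *Nr4a3*, with 107, 76.2 and 83.1 normalized reads in blood, against 230, 233 and 352 in liver_C (adjusted p = 0.113), and *Rhob*, with 107, 207 and 159 in blood, against 350, 264 and 303 in liver_C (adjusted p = 0.113). *Nr4a1* and *Egr1* overlapped between the groups. Without single libraries the number of called members ranged from 3 (without liver_C N1383) to 8 (without liver_C N1224), and it was 10 of 33 among the libraries N1376 to N1383.

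Promoters of *Dusp1*, *Fos* and *Ppp1r15a* are shown, chosen after the search, because these genes were low together in blood and their windows hold the cAMP response element (CRE), to which CREB binds, or a part of it. Sequences are RefSeq windows of GRCm38.p6, from 250 bases before to 50 after the gene start, 5′ to 3′ on the strand of the gene, with the full CRE TGACGTCA and its part TGACG, searched on both strands, in capitals. Each full CRE holds the shorter motif on both strands.
Dusp1, chr17:26508423-26508722, minus strand: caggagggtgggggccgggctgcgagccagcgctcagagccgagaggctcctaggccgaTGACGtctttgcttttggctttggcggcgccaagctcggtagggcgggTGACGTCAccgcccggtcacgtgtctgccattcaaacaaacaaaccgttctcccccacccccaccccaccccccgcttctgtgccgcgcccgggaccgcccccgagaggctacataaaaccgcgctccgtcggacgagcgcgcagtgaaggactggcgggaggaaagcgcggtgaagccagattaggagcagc
Fos, chr12:85473640-85473939, plus strand: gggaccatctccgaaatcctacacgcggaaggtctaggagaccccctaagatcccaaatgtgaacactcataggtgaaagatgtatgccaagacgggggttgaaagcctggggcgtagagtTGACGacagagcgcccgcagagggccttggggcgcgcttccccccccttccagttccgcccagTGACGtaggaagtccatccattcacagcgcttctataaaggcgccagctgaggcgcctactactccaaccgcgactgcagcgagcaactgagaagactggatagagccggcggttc
Ppp1r15a, chr7:45526219-45526518, minus strand: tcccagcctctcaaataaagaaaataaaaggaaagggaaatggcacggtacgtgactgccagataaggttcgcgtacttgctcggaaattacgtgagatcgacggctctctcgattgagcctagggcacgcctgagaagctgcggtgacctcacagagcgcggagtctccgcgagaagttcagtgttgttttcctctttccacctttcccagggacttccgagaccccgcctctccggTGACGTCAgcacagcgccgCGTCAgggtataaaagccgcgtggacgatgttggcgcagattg
Windows were found for 25 of the 35 called genes. The full CRE was in 2 of 13 windows of genes lower in blood (*Dusp1* and *Ppp1r15a*), in 0 of 12 of genes higher in blood, and in 1.88% of the windows of 27025 genes. The part TGACG was in 8 of the 13 and 6 of the 12, against 21.0% of all windows. The AP-1 motif TGAGTCA was in 1 of the 13 (*Tnfaip3*) and 0 of the 12, against 5.17%, and the KLF motif CCACCC in 4 of the 13 and 5 of the 12, against 30.9%. These matches are a description of the letters, and binding was not measured.

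Among genes that mark lymphocytes resident in tissue, *Rgs1*, *Rgs2* and *Cd69* fell in blood. Of 17 tested members of a list of tissue residency genes, 3 fell, none rose, and the median log2 fold change was −0.39. *Rgs1*, which dampens signals of chemokine receptors, had 721, 484 and 619 normalized reads in blood, against 1827, 1811 and 1960 in liver_C (−1.63 ± 0.18, adjusted p = 6.6e-05). Its relative *Rgs2* had 173, 150 and 211 normalized reads in blood, against 409, 560 and 540 in liver_C (−1.50 ± 0.15, adjusted p = 2.66e-05). Both were without overlap between the groups. In spleen *Rgs1* had 1230 to 1396 normalized reads and *Rgs2* 189 to 231, and in thymus 704 to 1107 and 988 to 1217. *Rgs2* in spleen was thus near its level in blood, and in thymus above that in liver_C. Both were called higher in liver_H than in liver_C in the same limma fit, by 0.90 and 1.37 on the log2 scale (adjusted p = 0.0105 and 2.11e-05). *Cd69* had 385, 479 and 445 normalized reads in blood, against 715, 1065 and 1023 in liver_C (−1.08 ± 0.20, adjusted p = 0.0193). *Cd69* is a gene of early activation as well as of residency, and it was called in 1 of 6 fits without a single library (without liver_C N1224, adjusted p up to 0.152 in the others). Other members did not pass the test: the chemokine receptor gene *Cxcr6*, which keeps iNKT cells in the liver sinusoids, had 8017, 8903 and 7975 normalized reads in blood, against 9489, 13099 and 10531 in liver_C (adjusted p = 0.57), and *Zfp683* (Hobit) had 1405, 1532 and 1538 in blood, against 1774, 1309 and 1407 in liver_C (adjusted p = 0.996). *Itgae*, which encodes the integrin chain CD103, was scarce and had a log2 fold change of 2.07 without a call (adjusted p = 0.125).

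Among genes of tissue egress, *Klf2* and *S1pr1* rose in blood. *Klf2* had 412, 403 and 394 normalized reads in blood, against 179, 154 and 171 in liver_C (1.26 ± 0.12, adjusted p = 1.56e-05). Replicates of each group were within a narrow range, and *Klf2* was the only one of the 15 higher genes that was called without each of the 6 libraries in turn. *Klf2* had 2309 to 2787 normalized reads in liver_H and 276 to 334 in spleen. *S1pr1*, the egress receptor, had 361, 428 and 415 normalized reads in blood, against 131, 214 and 217 in liver_C (1.13 ± 0.23, adjusted p = 0.0392), and 377 to 564 in spleen. It had 249 to 486 normalized reads in liver_H and 315 to 371 in thymus. In the same limma fit both genes were also called higher in spleen, liver_H and thymus than in liver_C (adjusted p up to 0.0255). Their rise was thus not particular to blood. *Ccr7*, the receptor for entry into lymph nodes, had 21.1, 64.1 and 35.5 normalized reads in blood, against 1.65, 17.6 and 8.52 in liver_C, and was not called (adjusted p = 0.299). *Klf3* and *Ly6c2* overlapped between the groups. Among the libraries N1376 to N1383 both *Klf2* and *S1pr1* were called, with adjusted p of 0.00323 and 0.0236. Without single libraries *S1pr1* was called in 1 of 6 fits, with log2 fold changes from 0.89 to 1.25.

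**Figure D3:**
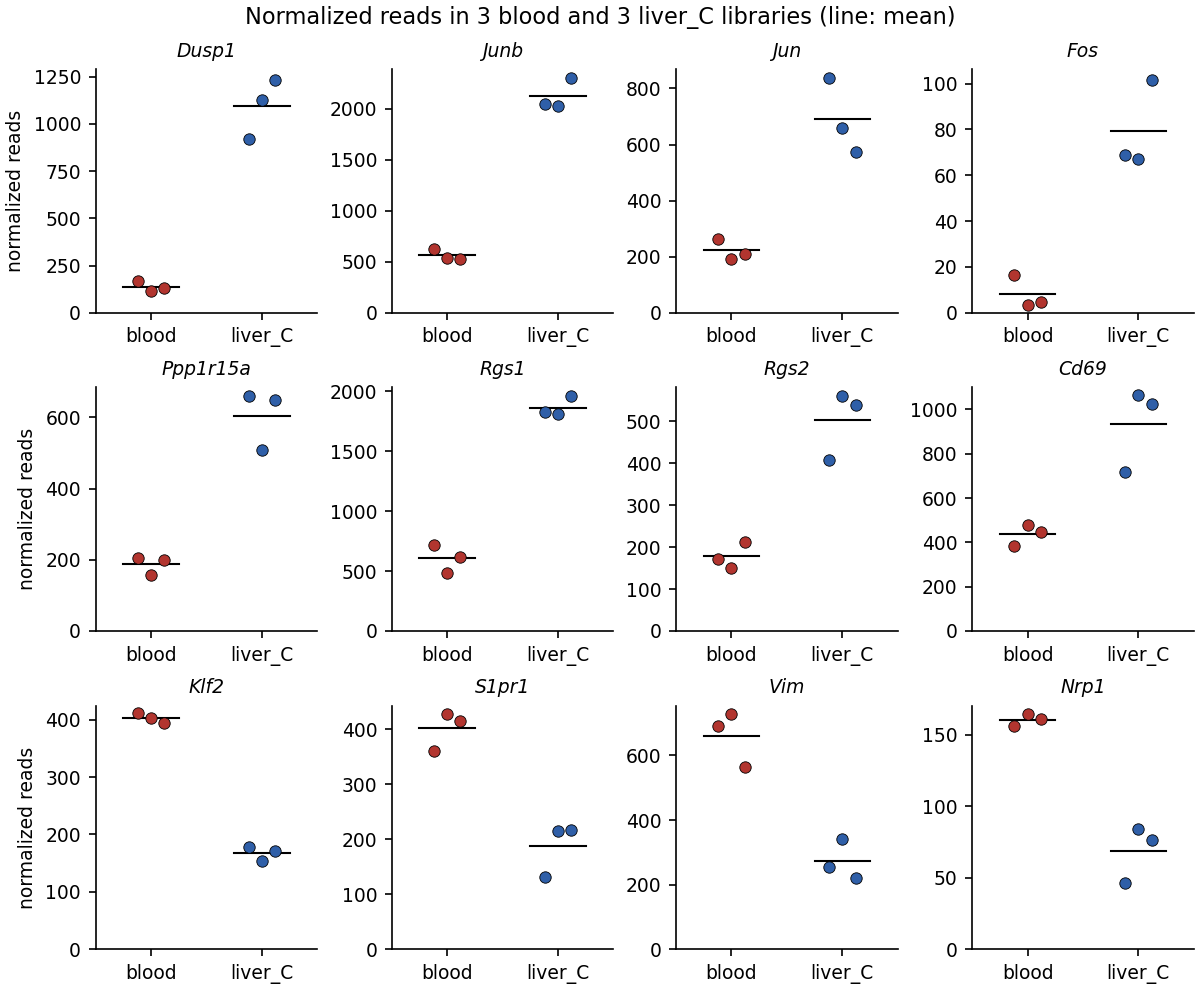
Normalized reads of 12 called genes in the 3 blood libraries (red, left) and the 3 liver_C libraries (blue, right), with the mean as a line. Immediate early and residency genes are lower and *Klf2*, *S1pr1*, *Vim* and *Nrp1* higher in blood, and the groups do not overlap in any panel.

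Other genes that rose in blood were *Vim*, which encodes the intermediate filament vimentin, and *Nrp1*, which encodes neuropilin 1, a co-receptor for semaphorins and VEGF. *Vim* had 692, 729 and 563 normalized reads in blood, against 255, 342 and 220 in liver_C (log2 fold change 1.29 ± 0.22, adjusted p = 0.0139). *Nrp1* had 156, 165 and 161 normalized reads in blood, against 46.2, 83.8 and 76.7 in liver_C (1.25 ± 0.23, adjusted p = 0.0204). In *Nrp1* the blood libraries were nearly equal. Both genes were higher in the thymus libraries, where *Vim* had 4042 to 4528 and *Nrp1* 349 to 406 normalized reads. The part of thymic RNA in their levels was not tested. *Vim* had 713 to 979 normalized reads in liver_H and 286 to 634 in spleen, and *Nrp1* 140 to 191 and 148 to 264. Both were also called higher in liver_H than in liver_C by limma (adjusted p = 1.77e-04 and 0.00461), so their rise was not particular to blood. *Vim* was not called without blood N0962, blood N1378 or liver_C N1383 (adjusted p up to 0.124), and *Nrp1* was called without liver_C N1379 alone (up to 0.107).

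Cell cycle genes leaned higher in blood, although single genes rarely passed the test. All 33 members of the list had a positive log2 fold change, with a median of 1.35 and 28 of the 33 at an unadjusted p under 0.05, against 7.26% of all genes tested, and *Bub1b* alone was called. The list summed to 15248 to 19742 normalized reads in blood and 8976 to 13181 in liver_C. It summed to 12624 to 15830 in liver_H, 12238 to 26651 in thymus and 7009 to 9252 in spleen. The ranges of liver_H and thymus overlap that of blood, so this level was not particular to blood. *Bub1b*, a kinase of the spindle checkpoint, had 435, 555 and 361 normalized reads in blood, against 118, 179 and 143 in liver_C (1.61 ± 0.32, adjusted p = 0.036). The proliferation marker *Mki67* had 810, 369 and 369 normalized reads in blood, against 202, 119 and 199 in liver_C (1.50, adjusted p = 0.314), and *Top2a*, the topoisomerase of dividing cells, had 1815, 2127 and 1481 in blood, against 564, 931 and 698 in liver_C (1.32, adjusted p = 0.178). The largest log2 fold change on the list was that of the cyclin *Ccna2*, 1.84 (adjusted p = 0.125), and the smallest were those of the replication clamp *Pcna*, 0.12, and the helicase subunits *Mcm4*, *Mcm6* and *Mcm2*, 0.23, 0.29 and 0.32 (adjusted p from 0.487 to 0.983). Other called genes higher in blood, not on the list, were *Knl1* (1.86) at the kinetochore, the phosphatase *Cdc25b* (1.34), the factor *E2f2* (2.03), the condensin subunit *Ncapd2* (1.18), the formin *Diaph3* (1.23), *Tcf19* (1.65) and *Depdc1b* (2.20), with adjusted p from 0.0153 to 0.0427. *Ncapd2* had 1100, 1026 and 1002 normalized reads in blood, against 440, 519 and 426 in liver_C. The median of the cell cycle list was at least 1.06 in all 18 alternatives, lowest in the libraries N1376 to N1383, and 12 members were called with only the 6 libraries in the fit. No member was called without blood N0962, N1378 or N1382 or without liver_C N1224 or N1383, and the median without N0962 was 1.29.

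**Figure D4:**
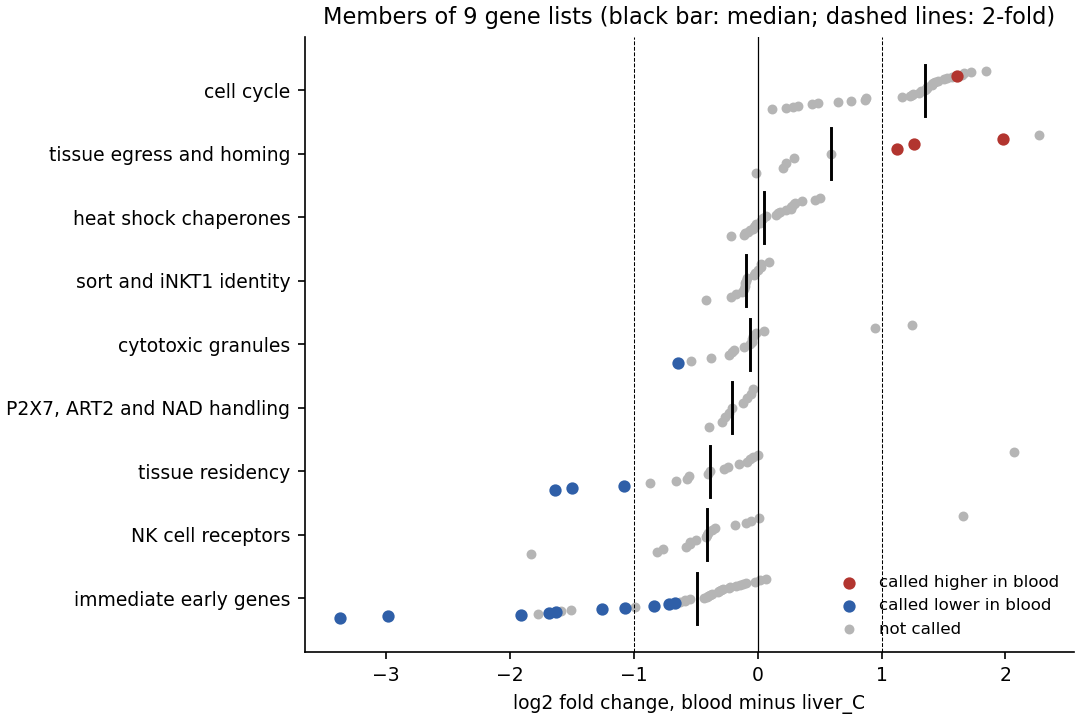
Log2 fold changes of blood minus liver_C for the tested members of 9 gene lists, 1 point per gene, with the median as a black bar. The medians run from 1.35 for the cell cycle to −0.49 for immediate early genes, and the genes behind the sort lie close to 0.

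Blood libraries also held transcripts typical of other cells. *Cd8a* and *Arpp21* had the largest positive differences among called genes. *Cd8a* had 249, 111 and 39.2 normalized reads in blood, against 7.70, 5.17 and 0 in liver_C (log2 fold change 4.79 ± 0.72, adjusted p = 0.00315), in cells sorted as CD4+. *Arpp21* had 259, 89.2 and 17.8 normalized reads in blood, against 0, 5.17 and 0 in liver_C (5.37 ± 1.12, adjusted p = 0.0446). Both are expressed by double-positive thymocytes, the precursors in the thymus that carry CD4 and CD8, and both were highest in the thymus libraries, where *Cd8a* had 755 to 2318 and *Arpp21* 610 to 1611 normalized reads. A list of 10 genes of such thymocytes, chosen after the data had been seen, had 8 tested members, of which *Cd8a* and *Arpp21* were called. All 8 were higher in every blood library than in every liver_C library, as were 6.88% of all genes tested. The choice of the list makes this a description. *Cd8a* and *Arpp21* were under 10 normalized reads in every liver_C library and entered the test only through the blood libraries. For such genes the filter fixed the lack of overlap, and their adjusted p is not independent of it. Its summed level was 4424, 2170 and 1367 normalized reads in blood, against 1106, 1088 and 1089 in liver_C, and *Ccr9*, which iNKT1 cells also express, made up most of it in liver_C. *Rag2* and *Ptcra* were at 0 in all liver_C libraries. *Dntt*, the polymerase that adds bases at receptor joints, had 421, 181 and 22.4 normalized reads in blood, against 0.550, 8.27 and 1.70 in liver_C (adjusted p = 0.14). In liver_H, *Rag1* had 278, 412 and 0 normalized reads. Without single liver_C libraries *Cd8a* was called in 3 of 3 fits and *Arpp21* in 1 of 3, and without a blood library neither had enough libraries above the minimum to be tested.

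Cell cycle genes were more even over the blood libraries than thymocyte genes. In N1382, which had the least *Rag1* of the blood libraries, 24 of the 33 cell cycle genes were above all liver_C libraries, against 29 in N0962 and 31 in N1378. The part of thymocyte RNA in the levels of cell cycle genes and other higher genes was not tested. Erythroid genes summed to 259, 1642 and 158 normalized reads in blood, against 179, 48.6 and 95.4 in liver_C, and 0 of 5 tested members were called by limma, edgeR or DESeq2 (4 with an unadjusted p under 0.05). *Ms4a1* (CD20) of B cells had 13.4, 63.2 and 15.9 normalized reads in blood, against 2.20, 0 and 0 in liver_C, and of 9 tested genes of B and plasma cells 0 were called by limma and edgeR (1 with an unadjusted p under 0.05) and 1 by DESeq2. *Clec4f* of Kupffer cells was at 0 in all blood libraries and had at most 3.10 normalized reads in liver_C. Among the 12 marker lists, that of CD8 T cells had a call with *Cd8a*. Most genes of the lists for liver and myeloid cells were too low to be tested, with 0 of 19 tested for hepatocytes and 0 of 8 for dendritic cells.

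**Figure D5:**
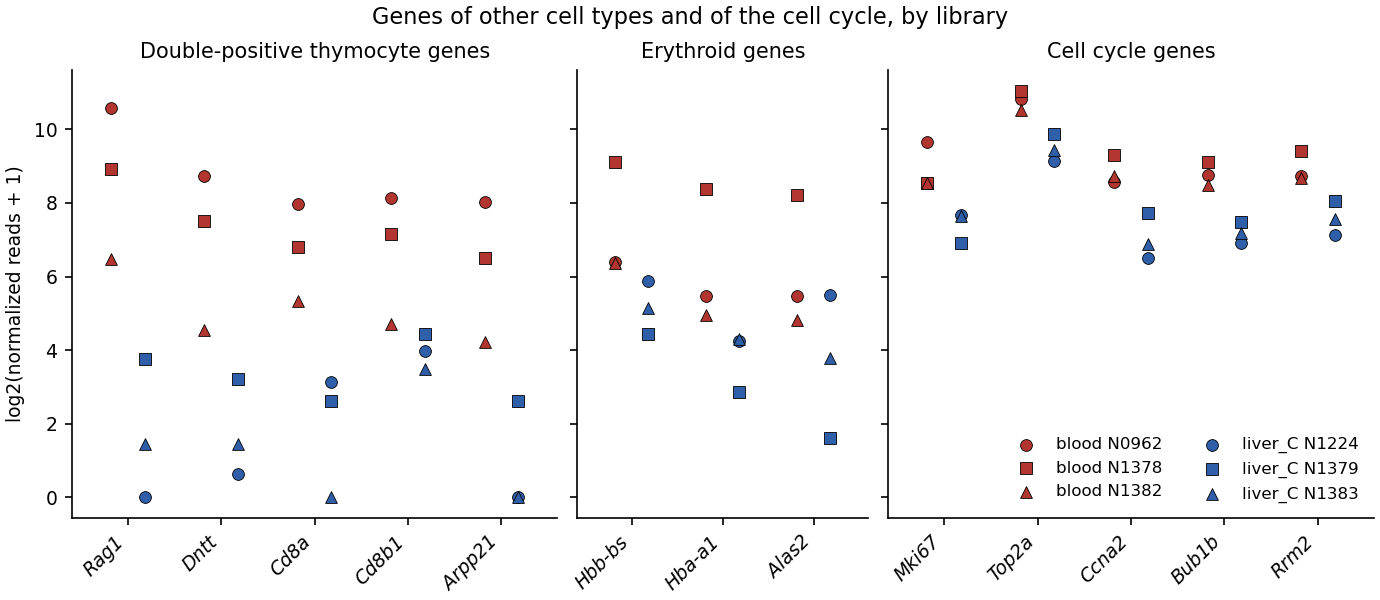
Log2(normalized reads + 1) of genes of double-positive thymocytes (left), erythroid cells (middle) and the cell cycle (right), with blood libraries in red left of liver_C libraries in blue. Thymocyte genes are highest in blood N0962 and lowest of the blood libraries in N1382, erythroid genes stand out in N1378, and the cell cycle genes are more even over the blood libraries.

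Few effector genes were called. Of 15 tested genes of cytotoxic granules and death ligands, only *Fasl* was called: it had 879, 953 and 1054 normalized reads in blood, against 1384, 1574 and 1539 in liver_C (log2 fold change −0.64 ± 0.12, adjusted p = 0.0204). The list had a median of −0.06. *Gzmb*, which encodes granzyme B, had 1578, 2257 and 2176 normalized reads in blood, against 1977, 2643 and 2406 in liver_C (adjusted p = 0.94), and *Prf1*, which encodes perforin, had 626, 465 and 497 in blood, against 708, 478 and 634 in liver_C (adjusted p = 0.966). NK cell receptor genes leaned lower in blood without a call by limma, edgeR or DESeq2: 15 of 17 had a negative log2 fold change, the median was −0.41 and 9 had an unadjusted p under 0.05. *Klrc1*, which encodes the inhibitory receptor NKG2A, had 1409, 2368 and 1889 normalized reads in blood, against 2677, 2700 and 2920 in liver_C (adjusted p = 0.192), and *Klrk1* (NKG2D) had 1236, 1427 and 1553 in blood, against 1957, 1646 and 1981 in liver_C (adjusted p = 0.311). Of 13 cytokine and chemokine genes, 0 were called by limma and edgeR and 2 by DESeq2, and 4 had an unadjusted p under 0.05, all lower in blood. The median of these 13 was −0.39. *Ifng* had 75.8, 70.1 and 144 normalized reads in blood, against 187, 175 and 214 in liver_C (−1.05, adjusted p = 0.228). The transcript AC153498.1, which lies within *Ifng* on the same strand (chr10:118441419-118444140, GRCm38), fell by 2.66 on the log2 scale, with 85.4, 97.0 and 56.1 normalized reads in blood, against 421, 492 and 589 in liver_C (adjusted p = 6.6e-05). AC153498.1 had 86.0 to 128 normalized reads in spleen. Since *Ifng* and AC153498.1 share their strand and position, how reads were split between them is uncertain.

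In the NF-κB pathway, which is switched on by receptors of T cells and of inflammation, 2 of 17 tested genes fell and none rose, with a median of −0.22. *Tnfaip3* (A20), an enzyme that ends NF-κB signals, had 705, 635 and 566 normalized reads in blood, against 1099, 916 and 1448 in liver_C (−0.84 ± 0.17, adjusted p = 0.0422). *Nfkbiz*, an atypical IκB protein, had 550, 734 and 647 in blood, against 869, 1113 and 1081 in liver_C (−0.67 ± 0.13, adjusted p = 0.0288). The subunit genes themselves were close: *Rela* had a log2 fold change of 0.06 (adjusted p = 0.983) and *Nfkb1* of −0.05 (adjusted p = 0.983). The remaining called genes were *Nabp1*, a protein that binds single-stranded DNA, which had 2906, 3412 and 2737 normalized reads in blood, against 4654, 4931 and 4660 in liver_C (−0.66 ± 0.13, adjusted p = 0.0288), and the uncharacterized genes Gm33104 (−1.73, adjusted p = 0.0139) and Gm38140 (−2.10, adjusted p = 0.0151).

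Genes behind the sort differed little between the groups. Both groups were gated by the same markers, so similar levels of the genes of those markers are not an independent result. For all 15 genes behind the sort and the iNKT1 identity, the confidence interval of the log2 fold change lay within 2-fold, and 0 were called by limma, edgeR or DESeq2 (2 with an unadjusted p under 0.05). *Tbx21* (T-bet) had 2920, 2799 and 2672 normalized reads in blood, against 3077, 2782 and 3187 in liver_C. *Zbtb16* (PLZF), the master factor of iNKT cells, had 2197, 1900 and 1921 normalized reads in blood, against 2258, 1926 and 1944 in liver_C, so that the groups were interleaved. *Cd4*, *Cxcr3* and *Il2rb* (CD122) were likewise close, for example 2428, 2505 and 2843 normalized reads of *Cxcr3* in blood, against 2605, 3038 and 2714 in liver_C. *Klrb1c* (NK1.1) was the most different of the 15, with 2020, 2299 and 2437 normalized reads in blood, against 2632, 3119 and 3260 in liver_C (log2 fold change −0.41, adjusted p = 0.386).

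Of 25 tested genes that the study names, *Klf2* rose and *Dusp1*, *Junb*, *Jun*, *Fos* and *Ppp1r15a* fell, as given above. The study chose them on other comparisons of these libraries, so they are not independent evidence of a direction. Heat shock genes had no call: of 26 tested chaperone genes, 0 were called by limma, edgeR or DESeq2 (1 with an unadjusted p under 0.05), the median log2 fold change was 0.05, and 22 had an interval within 2-fold. *Hspa1b* had 55.6, 8.66 and 9.34 normalized reads in blood, against 11.0, 25.9 and 11.1 in liver_C, and *Hspa1a* at most 9.59 in blood and 11.1 in liver_C. *Hsph1* stood out in a single library, N0962, with 2694, 1097 and 983 normalized reads in blood, against 894, 927 and 1235 in liver_C (adjusted p = 0.823). It was not alone there: in N0962, 15 of the 26 chaperone genes were above all liver_C libraries, against 7 in N1378 and 4 in N1382. The chaperone list summed to 70268, 58837 and 53406 normalized reads in blood, against 50722, 59031 and 61456 in liver_C. *P2rx7*, the ATP-gated channel P2X7, had 3282, 2488 and 2826 normalized reads in blood, against 3483, 2588 and 3088 in liver_C, and *Art2b*, which encodes the enzyme that modifies P2X7, had 1519, 1760 and 1662 in blood, against 1767, 2018 and 1917 in liver_C. Of 9 genes of this pathway 0 were called by limma, edgeR or DESeq2, 0 had an unadjusted p under 0.05, and 8 had an interval within 2-fold.

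The thresholds that the study set for volcano plots ask for a 3-fold difference, p up to 0.05 before adjustment and more than 300 normalized reads in any library. These were met by 20 genes, which is 0.163% of those tested. The 7 lower in blood were *Dusp1*, AC153498.1, *Junb*, *Ppp1r15a*, *Rgs1*, *Jun* and *Nr4a3*. The 13 higher in blood were *Rag1* and *Dntt* of thymocytes, the globin genes *Hba-a1* and *Hbb-bs*, the mitotic genes *Aspm*, *Ccna2*, *Cit* and *Bub1b*, and 5 replication histone genes. These histone genes, such as *Hist1h1b* with 1986, 2661 and 1405 normalized reads in blood, against 330, 1400 and 585 in liver_C (adjusted p = 0.285), have near-identical copies between which reads can be split. Of these 20 genes, 7 were also called at the adjusted p, and *Bub1b* was the single one of them that was higher in blood.

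Of the 25 lists of pathway genes, 8 had a called member and 17 had none. Among the 17 were chemokine receptors, cytokine receptors, integrins, costimulatory and inhibitory receptors, and lineage transcription factors. Interferon-stimulated genes (35 tested, median −0.13), cholesterol synthesis (20 tested, median 0.02) and glycolysis and hypoxia (21 tested, median 0.05) were also without a call by limma, edgeR or DESeq2 (6, 0 and 1 with an unadjusted p under 0.05).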

How the data were processed

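RNA of sorted CD4+ iNKT1 cells was sequenced with a stranded, ligation-free kit, as single reads, without molecular identifiers. The authors trimmed reads with Trim Galore 0.4.4, aligned them with STAR, counted them over GENCODE genes of GRCm38.p6 with featureCounts and divided them by DESeq2 size factors. The deposited signal is thus normalized reads of 53714 genes. Whole reads were recovered: at least 99.977% of values were within 0.05 of a multiple of 1 read. Deposited columns of the authors' thymus comparison (fold changes and p-values) were not used.

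The main test was limma 3.58.1 with a trend (R 4.3.3) on log2(value + 1) of the 15 BL6 libraries in 5 groups, for blood minus liver_C. Genes needed at least 10 normalized reads in at least 3 of the 6 libraries, and p-values were adjusted by Benjamini-Hochberg over all genes tested. Fold changes are on this log2 scale, which understates changes of low genes. Alternatives were quantile normalization, filters, pseudocounts, samples in the fit, edgeR 4.0.16 and DESeq2 1.42.0 on recovered reads, a term for the library number range, and leaving out each library. The calls were also run on simulated data, in which fold changes were planted in blood and libraries otherwise shared a mean for each gene. These simulated data held no RNA of other cells and no effect of the library number range, so they do not check the calls for either.

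Named genes were the 15 highest and 15 lowest called genes over 300 normalized reads without overlap, up to 4 called members of each pathway list, genes named in the study or used for the sort, and the 3 most abundant of each marker list. Other genes were named after their values were seen. The members and lists were chosen with earlier results of these data known. The values of some genes are not reported here.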

Additional observations from a re-analysis of the deposited data

How the results depend on the processing

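All 35 called genes kept their sign in every alternative that tested them, and 7 were called in all 18 alternatives, which were *Klf2*, *Dusp1*, *Junb*, *Rgs1*, *Rgs2*, *Ppp1r15a* and AC153498.1. The number of called genes (35) was 19 with a filter at over 300 normalized reads, 95 with only the 6 libraries in the fit, 10 with all 20, 141 with DESeq2, 84 with the library number range as a term, and 8 to 29 without single libraries. By library it was 19 without blood N0962, 14 without blood N1378, 17 without blood N1382, 21 without liver_C N1224 and 8 without liver_C N1383. Genes higher in blood (15) numbered 25 with quantile normalization, 4 with the filter at over 300, 69 with the 6 libraries, 2 with all 20, 86 with DESeq2, 48 with the range term, 9 in libraries N1376 to N1383, and 1 to 16 without single libraries. Genes lower in blood (20) numbered 8 with all 20 libraries, 55 with DESeq2, 36 with the range term, and 6 to 17 without single libraries. With edgeR, 38 genes were called, 17 higher and 21 lower. The cause of these shifts was not tested, except that fewer genes were tested under the stricter filter.

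Genes with an interval within 2-fold (8639) numbered 5536 with the filter at over 300 and 8107 to 8190 without single libraries. Genes past the volcano thresholds (20) numbered 9 to 33 without single libraries. Those higher in blood (13) numbered 8 with DESeq2, 5 in libraries N1376 to N1383, and 6 to 25 without single libraries, and those lower (7) numbered 3 to 9. Between spleen and liver_C (291) the calls numbered 176 with the filter at over 300, 166 with all 20 libraries, 449 with DESeq2, 446 with the range term, and 166 to 272 without single libraries. Between liver_H and liver_C (283) they numbered 121, 127, 506, 162, and 132 to 279 in the same order. Between thymus and liver_C (1506) they numbered 954 with the filter at over 300 and 1009 to 1515 without single libraries. Between blood and spleen (586) they numbered 384 without a filter, 349 with the filter at over 300, 275 with all 20 libraries, 1074 with the range term, and 323 to 642 without single libraries. The mean distance of blood from liver_C libraries (0.670) was 0.705 with a pseudocount of 0.5, 0.483 with 10, 0.379 over genes with over 300 normalized reads and 1.01 without a filter, where it was below that within blood (1.04). The median log2 fold change of all genes lay between −0.0095 and 0.016.

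No paired analysis was possible because the labels give no replicate number that blood and liver_C libraries share. With 3 libraries a group, genes of low reads are bounded loosely: the median mean value was 387 normalized reads for genes with an interval within 2-fold and 27.0 for the others. Blood and liver_C share only the range N1376 to N1383 of library numbers, with 2 libraries each.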
